A study of Mus musculus with 54 samples.

Results

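The 9 genes Sall1, Sall3, Maf, Mef2a, Mef2c, Spi1, Runx1, Cebpa and Cebpb encode transcription factors that set or maintain the identity of macrophages. They were taken by symbol from the 33280 genes listed in the count tables, and all 9 were found and tested in each of 22 comparisons. Levels were read in 54 RNA-seq libraries from 24 mice, which form 18 groups of 3 libraries. Microglia (MG), the macrophages of the brain parenchyma, and subdural CNS-associated macrophages (sdCAMs), those of the leptomeninges and perivascular spaces, were sorted from brains without choroid plexuses, with CD206, the product of Mrc1, marking the sdCAMs. Wild-type (WT) and Ccr2-/- mice contributed 3 groups per cell type. These were untreated mice injected with PBS, mice given the vehicle (CTL) and then lipopolysaccharide (LPS), and mice given the CSF1R inhibitor BLZ945, which empties the macrophage niches, and then LPS. Ccr2-/- mice lack the chemokine receptor through which monocytes leave the bone marrow. In the reporter mice, homozygous for Ccr2CreERT2 and R26tdT and named Ccr2Cre here, tamoxifen (2 mg per dose) labels cells that express Ccr2 and their progeny with tdTomato (tdT), so that the tdT+ and tdT- sdCAMs could be sorted apart. All Ccr2Cre mice had received BLZ945, followed by LPS or PBS, and no group without BLZ945 was included. In the sample annotation their libraries form another batch than the WT and Ccr2-/- libraries, so genotype and batch cannot be told apart between them. As a Ccr2CreERT2 homozygote carries the Cre in both copies of Ccr2, these mice are not a WT background. Injections were made 8 weeks after the treatment and 12 h before the sort, and the methods give an age, in weeks, for the first gavage only and not for single mice. In WT and Ccr2-/- mice, LPS groups also received the vehicle gavage and untreated groups did not, so LPS and gavage cannot be told apart.

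Total counts ranged from 7497764 to 11330781 in MG libraries, from 7887891 to 10727796 in Ccr2-/- sdCAMs, from 2060240 to 9850283 in Ccr2Cre sdCAMs and from 1705930 to 7699790 in WT sdCAMs. Levels are CPM, read counts scaled to a common library total, after TMM scaling over all libraries, given as mean ± SD of 3 libraries, and a change was called at an adjusted p below 0.05 with no limit on its size. The acute-phase gene Saa3 took between 23.0% and 35.8% of all counts in WT sdCAMs after CTL and LPS. It took between 1.79% and 21% there after BLZ945 and LPS, and between 14.5% and 28.3% in tdT- sdCAMs after LPS. The scaling raised the levels of other genes in these libraries, except in WT BLZ945 mice 8 and 11 (factors 1.21 and 1.28), where it lowered them. The 8 sdCAM markers summed to between 11150 and 17900 CPM in untreated WT sdCAMs against 479.6 to 503.1 CPM in MG of the same mice, and all 8 were called higher in sdCAMs of each untreated genotype. By sex-linked transcripts, 2 of 24 mice held conflicting libraries as named, and 0 did after exchange of the tdT- LPS library of mouse 1 with the tdT+ LPS library of mouse 7. The index numbers of these 2 libraries are also crossed between the sample annotation and the count columns. Values are for the libraries as named unless stated otherwise. Calls that were lost after this exchange are given with the exchanged value. Both libraries of untreated Ccr2-/- mouse 3m held Xist (171.3 and 253 CPM) and little Ddx3y (3.323 and 0.09275 CPM), unlike the other mice whose names end in m. In bulk RNA, fewer cells of a type and less RNA per cell cannot be told apart.

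PU.1, encoded by Spi1, is the ETS factor on which all macrophages depend, and it opens enhancers together with Runx1 and the C/EBP factors. Cebpa acts mainly in the making of myeloid cells, whereas Cebpb is an early gene of the acute inflammatory response. The MEF2 factors Mef2a and Mef2c occupy enhancers of microglial genes. Sall1 is a zinc-finger repressor that guards the microglial state, with Sall3 as a relative, and Maf, the large Maf protein c-Maf, is a regulator of perivascular and other tissue-resident macrophages.

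Promoter windows of 250 bases before the transcription start, from RefSeq on GRCm38.p6, were read for 6 of the 9 members, namely Sall1, Mef2a, Mef2c, Runx1, Cebpa and Cebpb. The windows of 4 members called after LPS in MG of both genotypes are printed 5' to 3' on the strand of the gene. Capitals mark the motifs searched on either strand that were found in them, which were TGACG, the core of the cAMP response element, GAGGAA, the core of the PU.1 box, and TATAAA, the TATA box. Cebpb lies at chr2:167688665-167688914 on the plus strand, Cebpa at chr7:35119043-35119292 on the plus strand, Mef2a at chr7:67372859-67373108 on the minus strand and the second of 3 Mef2c starts at chr13:83523406-83523655 on the plus strand.
Cebpb: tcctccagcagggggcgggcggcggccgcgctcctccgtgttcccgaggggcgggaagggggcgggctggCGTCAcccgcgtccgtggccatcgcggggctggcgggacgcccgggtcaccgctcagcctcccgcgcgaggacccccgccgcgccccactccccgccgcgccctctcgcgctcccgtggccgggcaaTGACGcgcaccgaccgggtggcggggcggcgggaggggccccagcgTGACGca
Cebpa: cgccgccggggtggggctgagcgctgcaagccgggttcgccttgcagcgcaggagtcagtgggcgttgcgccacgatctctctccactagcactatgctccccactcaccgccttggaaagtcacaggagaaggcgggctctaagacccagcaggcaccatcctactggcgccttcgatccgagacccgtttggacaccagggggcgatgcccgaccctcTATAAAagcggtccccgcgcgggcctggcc
Mef2a: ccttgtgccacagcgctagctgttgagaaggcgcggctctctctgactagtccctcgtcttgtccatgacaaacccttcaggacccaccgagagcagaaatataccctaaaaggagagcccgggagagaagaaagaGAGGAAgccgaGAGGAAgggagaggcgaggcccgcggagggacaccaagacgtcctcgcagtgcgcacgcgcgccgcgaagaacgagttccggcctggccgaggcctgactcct
Mef2c: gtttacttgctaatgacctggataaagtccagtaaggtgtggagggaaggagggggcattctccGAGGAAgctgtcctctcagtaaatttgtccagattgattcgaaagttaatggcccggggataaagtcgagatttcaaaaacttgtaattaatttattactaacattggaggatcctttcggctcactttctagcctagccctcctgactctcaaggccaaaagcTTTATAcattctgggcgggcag
The Cebpb window held 3 TGACG cores, beginning at -180 (read as CGTCA), -53 and -7 from the start, and was 81.6% G and C. The Mef2a window held 2 GAGGAA cores at -114 and -103, and the printed Mef2c window held one at -186 and a TATA box on the other strand at -22. The Cebpa window held a TATA box at -30. Among windows not printed, the second of Sall1 held TGACG at -105 and the second of Runx1 GAGGAA on the other strand at -46. The first of Mef2c held GAGGAA at -122 and a TATA box on the other strand at -107. Matches did not overlap in these windows. Of 32851 promoters in the RefSeq table, 17.8% held TGACG, 23.3% held GAGGAA and 12.4% held TATAAA. The C/EBP motif TTGCNNAA (9.56% of promoters), the MEF2 motif (CTA and TAG with 4 bases of any kind between them, 3.2%) and the RUNX motif TGTGGT (14%) were not found in the windows of these 6 members. These are matches of letters in short windows, not sites of binding.

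In untreated WT mice the leading member differed between cell types, and in untreated Ccr2-/- mice Spi1 led in both. Levels of different genes are compared per kilobase of exon. In untreated WT MG, Sall1 had the highest level, 140 ± 12.1 CPM per kb, followed by Spi1 at 116 ± 17.1. In untreated Ccr2-/- MG, Spi1 was highest at 162 ± 2.74 CPM per kb and Sall1 followed at 111 ± 6.81. In untreated WT sdCAMs, Maf led at 1120 ± 670 CPM per kb, far above Spi1 at 153 ± 49.4 and Mef2c at 113 ± 53. In untreated Ccr2-/- sdCAMs, Spi1 at 139 ± 12.5 and Maf at 109 ± 7.4 CPM per kb were highest and Sall3 was lowest at 0.5 ± 0.458. Runx1 was the lowest member per kb in all of these groups except the Ccr2-/- sdCAMs, at 10.4 to 15.3 CPM per kb.

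**Figure D1:**
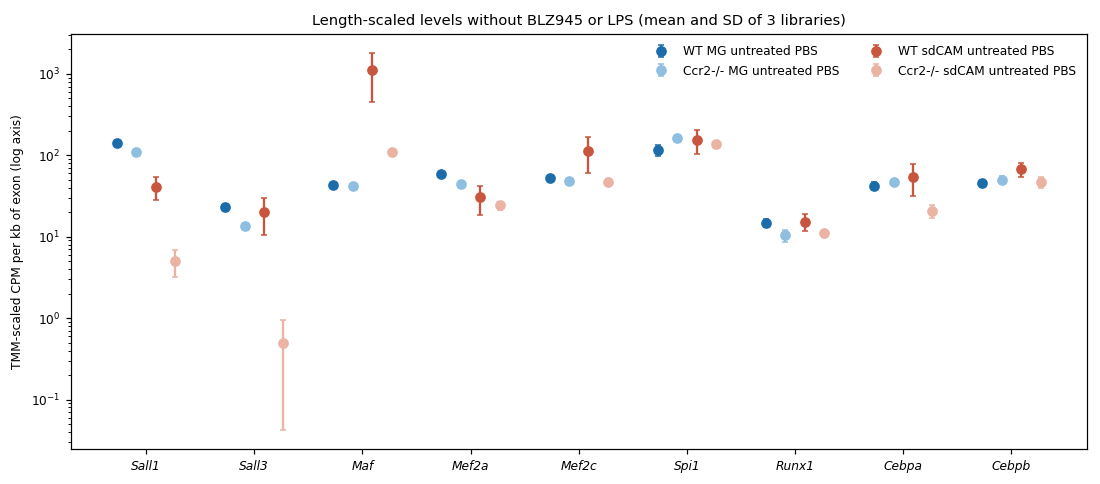
Levels of the 9 factors in untreated mice, in TMM-scaled CPM per kb of exon on a log axis, as mean ± SD of 3 libraries for MG and sdCAMs of WT and Ccr2-/- mice. Sall1 and Spi1 were highest in MG, and Maf stood highest in WT sdCAMs at 1120 CPM per kb.

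Sall1, the microglial repressor, was lower in sdCAMs than in MG in every untreated or PBS-injected population. In untreated WT mice 9, 14 and 15, its level was 667.3, 764.2 and 787.6 CPM in MG and 164.3, 191.4 and 296 CPM in sdCAMs. All MG libraries lay above all sdCAM libraries. The difference, sdCAM minus MG, was a log2 fold change of -1.76 ± 0.324 (SE, adjusted p = 0.0015). In untreated Ccr2-/- mice, MG held 556.3 to 624.3 CPM and sdCAMs 16.32, 28.04 and 35.76 CPM, a difference of -4.46 ± 0.58 (adjusted p = 9.94e-06). In Ccr2Cre mice after PBS, MG held 361.4 to 458 CPM, tdT- sdCAMs 13.65, 17.64 and 28.73 CPM, and tdT+ sdCAMs 0.8641, 0.564 and 5.825 CPM, which are 8, 5 and 55 counts. These sdCAM libraries lay far below the MG libraries, by -7.42 ± 1.13 for tdT+ cells (adjusted p = 0.00022) and -4.38 ± 0.967 for tdT- cells (adjusted p = 0.00753). The tdT- difference was not called for Sall1 without PBS mouse 174 (-4.13, adjusted p = 0.0791).

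Sall3 followed Sall1 in Ccr2-/- and Ccr2Cre mice but not in WT mice. In Ccr2-/- mice its level was 93.44 to 109.3 CPM in MG and 1.778, 1.745 and 7.695 CPM in sdCAMs, without overlap (-4.76 ± 0.475, adjusted p = 3.54e-07). In Ccr2Cre mice after PBS, MG held 88.6 to 191.9 CPM against 0.54, 0 and 2.754 CPM in tdT+ sdCAMs (5, 0 and 26 counts) and 1.442, 1.971 and 5.956 CPM in tdT- sdCAMs. Both differences were called, at -6.85 ± 1.21 (adjusted p = 0.000978) and -5.36 ± 1.12 (adjusted p = 0.00473), and the tdT- difference was not called for Sall3 without mouse 174 (-5.14, adjusted p = 0.0552). In WT mice 9, 14 and 15, Sall3 held 177.9, 185.9 and 163.3 CPM in MG and 172.8, 208.8 and 70.83 CPM in sdCAMs. The groups overlapped and the difference of -0.18 was not called (adjusted p = 0.794). The sdCAM libraries of WT mice 9 and 14 carry a label, IEG_correction, that the library of mouse 15 does not carry and that the labels do not explain. Of the other WT sdCAM libraries, all 3 after CTL and LPS carry it, and after BLZ945 and LPS that of mouse 12 does.

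Microglial markers were present in the sdCAM libraries. The 7 of 8 fixed microglial markers that the tables list (Fcrls was not among them) summed to between 22340 and 24190 CPM in untreated WT MG, 5275 and 8725 CPM in untreated WT sdCAMs, and 3108 and 4320 CPM in untreated Ccr2-/- sdCAMs, with none at 0. Relative to MG of the same mouse, the median marker stood at 19% to 38.5% in untreated WT sdCAMs, Sall1 at 24.6% to 37.6% and Sall3 at 43.4% to 112%. In untreated Ccr2-/- sdCAMs the markers stood at 6% to 10.5%, Sall1 at 2.86% to 5.73% and Sall3 at 1.6% to 7.71%. In tdT+ sdCAMs after PBS the markers stood at 5.28% to 7.25%, Sall1 at 0.156% to 1.27% and Sall3 at 0% to 3.11%. In tdT- sdCAMs after PBS the markers stood at 4.19% to 10.1%, Sall1 at 3.26% to 6.27% and Sall3 at 1.03% to 6.72%. Sall1 was thus below the markers in all Ccr2-/- and tdT+ libraries from mice without LPS, but in the tdT- library of mouse 175 it stood at 4.88% against 4.19% for the markers. The part of microglial RNA in the Sall1 and Sall3 levels of sdCAM libraries was not tested.

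**Figure D2:**
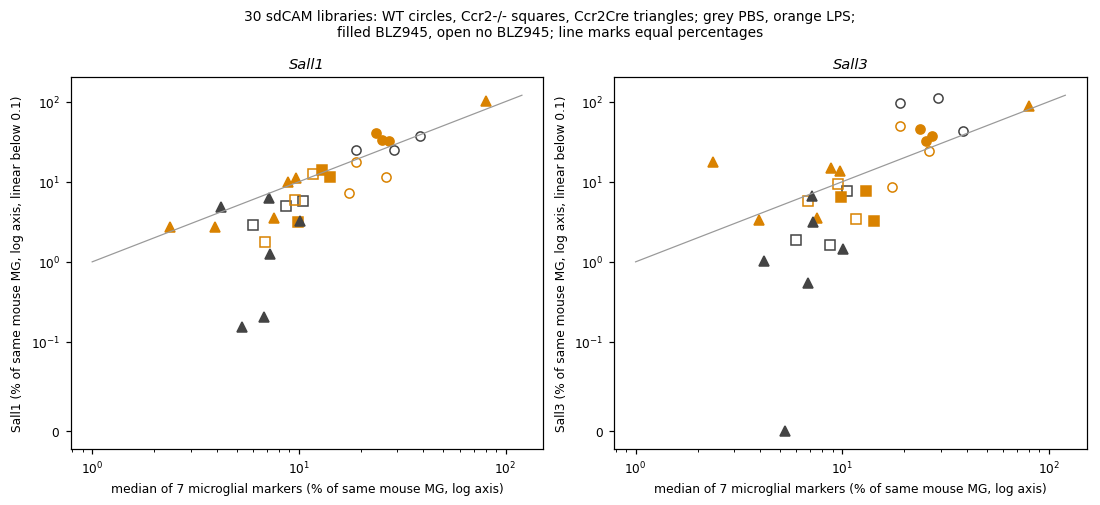
Sall1 (left) and Sall3 (right) in each of 30 sdCAM libraries as a percentage of the MG library of the same mouse, against the median of 7 microglial markers on the same scale, both on log axes. Markers by genotype are circles (WT), squares (Ccr2-/-) and triangles (Ccr2Cre), grey is PBS and orange LPS, filled symbols are BLZ945-treated, and the line marks equal percentages. The tdT+ PBS libraries lie lowest, with Sall1 at 0.156% to 1.27%, and the tdT+ LPS library of mouse 5 lies highest at 103%.

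Maf was the member with the largest excess in WT sdCAMs. Its level in untreated WT sdCAMs of mice 9, 14 and 15 was 12670, 12170 and 2867 CPM against 354.6, 378.1 and 339.9 CPM in MG. All sdCAM libraries were above all MG libraries, and the unmarked library of mouse 15 stood apart from the 2 libraries with the IEG_correction label. The difference was 4.74 ± 0.592 on the log2 scale (adjusted p = 4.08e-05), and 3.40 (adjusted p = 2.85e-05) with the mark as a covariate. In Ccr2-/- mice, sdCAMs held 955.6, 894.4 and 833.5 CPM and MG 332.5 to 356.6 CPM, again without overlap (1.36 ± 0.243, adjusted p = 0.00034). In Ccr2Cre mice after PBS, tdT+ sdCAMs held 535.3 ± 68.5 CPM, tdT- sdCAMs 559 ± 72.1 CPM and MG 209.6 ± 38.2 CPM. The lowest tdT+ and tdT- libraries, at 475 and 484.5 CPM, stood above the highest MG library at 246.8 CPM. The tdT+ difference of 1.33 was not called (adjusted p = 0.111). Neither was the tdT- difference, which was 1.39 (adjusted p = 0.106) with the mouse as a block.

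Mef2a was lower in sdCAMs than in MG in untreated WT and Ccr2-/- mice. Mef2a held 867.7 ± 28.2 CPM in untreated WT MG and 448.1 ± 174 CPM in sdCAMs (-0.95 ± 0.32, adjusted p = 0.0478), a call kept in 2 of 9 alternatives and lost with the mouse as a block (-1.0, adjusted p = 0.0985). In Ccr2-/- mice the Mef2a levels were 646.5 ± 57.5 and 355.9 ± 41.9 CPM (-0.87 ± 0.172, adjusted p = 0.000929). In Ccr2Cre mice after PBS, Mef2a was not called in tdT+ (-0.85, adjusted p = 0.378) or tdT- sdCAMs (-0.83, adjusted p = 0.436). Mef2c held 827.3 ± 41.3 CPM in WT MG and 2402, 2111 and 835.1 CPM in sdCAMs of WT mice 9, 14 and 15, a difference of 1.15 that edgeR did not call (adjusted p = 0.0601). It was called with DESeq2 (1.24, adjusted p = 0.00907), with DESeq2's size factors (adjusted p = 0.0457), with a mean of at least 10 counts as the filter (adjusted p = 0.0462) and without mouse 15 (1.5, adjusted p = 0.0385), and was 0.23 (adjusted p = 0.76) with the mark as a covariate. Cebpa, the myeloid differentiation factor, was lower in Ccr2-/- sdCAMs at 55.2 ± 10.2 CPM than in MG at 124.5 ± 8.43 CPM (-1.18 ± 0.297, adjusted p = 0.00651), and this was not called without mouse 3m (-1.03, adjusted p = 0.0868) or mouse 5f (-1.17, adjusted p = 0.0521). For Cebpa in tdT+ sdCAMs against MG after PBS, the difference of -1.85 was not called (adjusted p = 0.0865) but was with the mouse as a block (adjusted p = 0.0403). Spi1, Runx1 and Cebpb were not called between the cell types in any of these populations. In all, 3 members were called in WT mice, where 17.4% of 13136 genes tested were called, 5 in Ccr2-/- mice (22.4% of 12890), 2 in tdT+ sdCAMs (8.53% of 13309) and 2 in tdT- sdCAMs (6.38% of the same genes).

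LPS changed the same 7 members in MG of both genotypes, in the same direction. Sall1, Maf, Mef2a, Mef2c and Cebpa fell, Runx1 and Cebpb rose, and Spi1 and Sall3 were not called. Over all genes, 30.9% of 11789 were called in WT MG and 34.9% of 11558 in Ccr2-/- MG. Cebpb showed the largest change. It held 71.09, 64.53 and 68.01 CPM in untreated WT MG and 559.4, 367.3 and 404.9 CPM after LPS, with no overlap (2.71 ± 0.173, adjusted p = 9.42e-07). In Ccr2-/- MG it held 64.71 to 80.46 CPM before and 566.2 to 632.3 CPM after LPS (3.03 ± 0.173, adjusted p = 4.29e-08).

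Sall1 fell in WT MG from 667.3, 764.2 and 787.6 CPM to 138.5, 223.7 and 261.1 CPM in LPS mice 1, 4 and 6. The lowest untreated library stood above the highest LPS library, and the log2 fold change was -1.82 ± 0.203 (adjusted p = 6.47e-05). In Ccr2-/- MG, Sall1 fell from 556.3 to 624.3 CPM to a range of 119.5 to 161.5 CPM (-2.08 ± 0.241, adjusted p = 1.72e-05). Sall3, by contrast, held 175.7 ± 11.4 CPM in untreated WT MG and 126.3 ± 32.6 CPM after LPS, which was not called (-0.47, adjusted p = 0.0883), and was called without LPS mouse 4 (-0.69, adjusted p = 0.00749). In Ccr2-/- MG, Sall3 held 100.8 ± 7.96 and 82.06 ± 4.86 CPM (-0.28, adjusted p = 0.165). The 7 microglial markers summed to between 3759 and 6364 CPM in WT MG after LPS, from between 22340 and 24190 CPM in untreated MG.

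Mef2c fell in WT MG from 785.1, 867.7 and 829 CPM to 263.2, 404.8 and 373.4 CPM (-1.24 ± 0.165, adjusted p = 0.000237) and in Ccr2-/- MG from 759.3 ± 29.8 to 326.2 ± 34.1 CPM (-1.20 ± 0.148, adjusted p = 3.16e-05), without overlap in either. Maf fell from 357.5 ± 19.3 to 168.6 ± 58.5 CPM in WT MG (-1.08 ± 0.207, adjusted p = 0.00242) and by 1.46 ± 0.235 on the log2 scale in Ccr2-/- MG (adjusted p = 0.000289). Cebpa fell from 111 ± 11.4 to 54 ± 17.6 CPM in WT MG (-1.03 ± 0.213, adjusted p = 0.00364) and from 124.5 ± 8.43 to 50.14 ± 8.85 CPM in Ccr2-/- MG (-1.29 ± 0.19, adjusted p = 0.000139), opposite to its relative Cebpb. Runx1 rose in WT MG from 167.8, 201.2 and 169.3 CPM to 272.7, 446.3 and 362.1 CPM (1.01 ± 0.179, adjusted p = 0.00148) and in Ccr2-/- MG from 110.7 to 148 CPM to a range of 264.7 to 292.8 CPM (1.18 ± 0.157, adjusted p = 6.34e-05). In both genotypes every Runx1 library after LPS was above every untreated one. Mef2a was called in Ccr2-/- MG (-0.62 ± 0.15, adjusted p = 0.00575), whereas its call in WT MG (-0.53 ± 0.186, adjusted p = 0.0488) was kept in 5 of 11 alternatives. It was lost without LPS mouse 1 (-0.35, adjusted p = 0.116) or 6 (-0.45, adjusted p = 0.167), or without untreated mouse 9 (-0.53, adjusted p = 0.106), 14 (-0.50, adjusted p = 0.125) or 15 (-0.55, adjusted p = 0.0969). Spi1 held 313.6 ± 46.1 CPM in untreated WT MG and 314.3 ± 52.5 CPM after LPS (0.01 ± 0.156, adjusted p = 0.972), and 436.5 ± 7.38 and 488 ± 30.5 CPM in Ccr2-/- MG (0.18, adjusted p = 0.297).

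**Figure D3:**
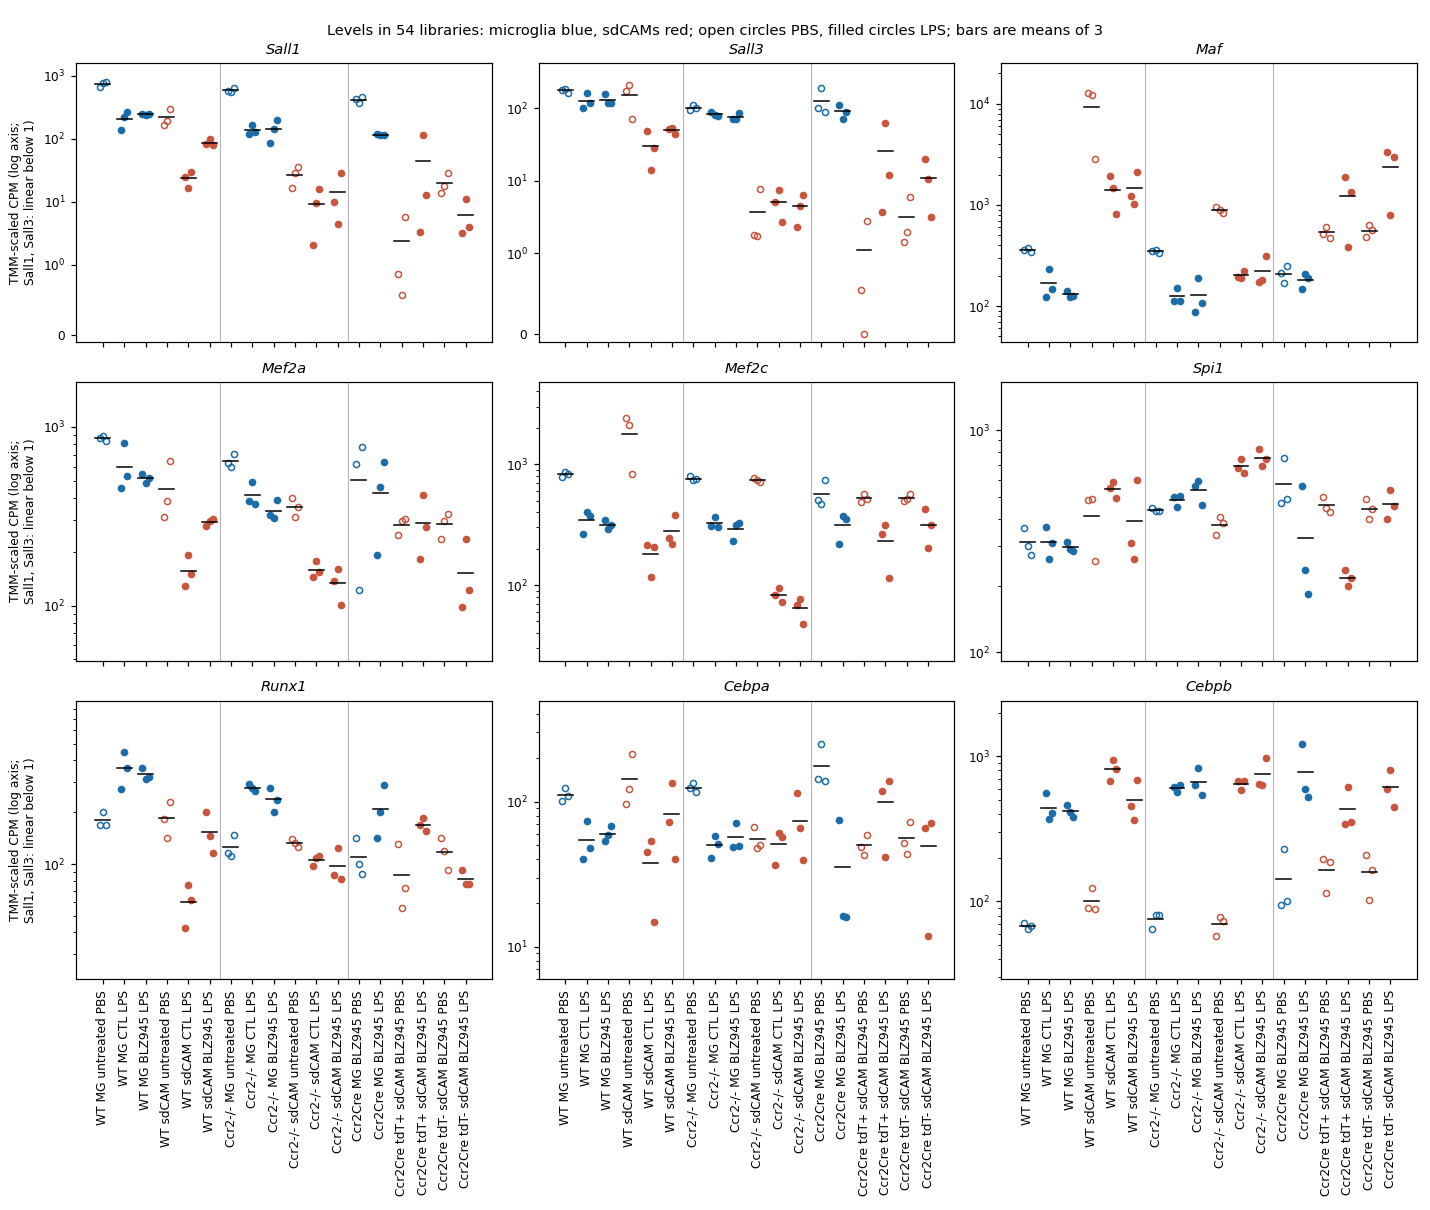
Level of each factor in every library, in TMM-scaled CPM on a log axis (linear below 1 for Sall1 and Sall3), over 18 groups of 3 libraries, with bars at the means. MG are blue and sdCAMs red, PBS groups have open and LPS groups filled points, and vertical lines separate WT, Ccr2-/- and Ccr2Cre mice. Cebpb stands higher in all 11 LPS groups than in all 7 PBS groups, from 420.4 CPM against 165.4 CPM by group mean.

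In sdCAMs, LPS raised Cebpb and lowered Mef2c in WT and Ccr2-/- mice. Over all genes, 6.32% of 10504 were called in WT sdCAMs and 28.8% of 11941 in Ccr2-/- sdCAMs, and 4 and 5 members were called. Cebpb held 90.31, 123.7 and 89.19 CPM in untreated WT sdCAMs and 677.7, 948.7 and 821.2 CPM after LPS, far above the untreated libraries (3.14 ± 0.557, adjusted p = 0.012). In Ccr2-/- sdCAMs it held 58.06, 77.94 and 73.78 CPM before and 676.7, 589.8 and 680.8 CPM after LPS (3.21 ± 0.204, adjusted p = 2.44e-07). The WT call of Cebpb was lost without untreated mouse 9 (3.09, adjusted p = 0.0542), 14 (3.34, adjusted p = 0.0588) or 15 (3.02, adjusted p = 0.0511).

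Mef2c fell in WT sdCAMs from 2402, 2111 and 835.1 CPM to 216, 116.5 and 207.3 CPM (-3.19 ± 0.678, adjusted p = 0.022) and in Ccr2-/- sdCAMs from 775.5, 743.3 and 707.5 CPM to 82.52, 95.21 and 71.81 CPM (-3.16 ± 0.205, adjusted p = 2.93e-07). The groups were widely separated in both genotypes. The WT call of Mef2c was lost on leaving out any LPS library or untreated mouse 9 or 14, with an adjusted p between 0.0646 without mouse 9 (-2.89) and 0.0953 without LPS mouse 6 (-3.33). Maf fell in Ccr2-/- sdCAMs from 955.6, 894.4 and 833.5 CPM to 192.8, 188.2 and 221.4 CPM (-2.16 ± 0.214, adjusted p = 9.81e-06), as did Mef2a from 355.9 ± 41.9 to 158.5 ± 17.1 CPM (-1.17 ± 0.192, adjusted p = 0.000582). In the same libraries 6 of 8 sdCAM markers fell, and their sum went from between 19910 and 20840 CPM to between 7618 and 8281 CPM, and its part in the Maf level was not tested. In WT sdCAMs, Maf held 9235 ± 5520 CPM before and 1950, 1463 and 805.8 CPM after LPS. Every LPS library was below every untreated one, but the difference of -2.62 ± 0.896 was not called (adjusted p = 0.0983), nor was that of Mef2a (-1.36 ± 0.469, adjusted p = 0.101). DESeq2 called both Maf (-2.60, adjusted p = 0.00153) and Mef2a (-1.35, adjusted p = 0.0144). Maf was also called with the mark as a covariate (-2.88, adjusted p = 0.0072).

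Sall1 and Sall3 fell in WT sdCAMs, from levels that were high beside those of the Ccr2-/- sdCAMs. Sall1 held 164.3, 191.4 and 296 CPM in untreated WT sdCAMs and 24.54, 16.32 and 29.48 CPM after LPS (-3.04 ± 0.434, adjusted p = 0.0055), a call kept in 12 of 12 alternatives. Sall3 held 172.8, 208.8 and 70.83 CPM before and 49.08, 13.99 and 27.95 CPM after LPS, without overlap (-2.18 ± 0.559, adjusted p = 0.0424). The Sall3 call was lost without LPS mouse 1 (-2.67, adjusted p = 0.0616), 4 (-1.85, adjusted p = 0.13) or 6 (-2.14, adjusted p = 0.144) and without untreated mouse 9 (-2.05, adjusted p = 0.101) or 14 (-1.86, adjusted p = 0.143). In Ccr2-/- sdCAMs, Sall1 held 26.7 ± 9.79 CPM before and 9.2 ± 6.93 CPM after LPS and Sall3 held 3.739 ± 3.43 and 5.051 ± 2.34 CPM, and neither was called (adjusted p = 0.128 and 0.748). After LPS, the median microglial marker in WT sdCAMs stood at 17.5% to 26.4% of MG from the same mice, Sall1 at 7.29% to 17.7% and Sall3 at 8.6% to 49.4%.

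Spi1, the gene of PU.1, rose in Ccr2-/- sdCAMs from 339.1, 405.8 and 380.6 CPM to 674.9, 744.9 and 641.5 CPM, with no overlap (0.87 ± 0.138, adjusted p = 0.000435). In WT sdCAMs it held 485.8, 493.1 and 258.8 CPM before and 551.6, 583.9 and 496.3 CPM after LPS (0.51 ± 0.551, adjusted p = 0.608), and in plain CPM the ratio had the opposite sign (-0.9). Runx1 and Cebpa were not called in the sdCAMs of either genotype with the fit as reported. Runx1 held 181.8, 141.9 and 230 CPM in untreated WT sdCAMs and 42.66, 75.75 and 61.73 CPM after LPS, all lower (-1.48 ± 0.426, adjusted p = 0.0615), and 132.3 ± 6.94 and 105.6 ± 6.9 CPM in Ccr2-/- sdCAMs (-0.33, adjusted p = 0.227). Cebpa held 144.1 ± 61.7 and 37.89 ± 20.5 CPM in WT sdCAMs (-1.80 ± 0.586, adjusted p = 0.0871) and 55.2 ± 10.2 and 51.46 ± 13 CPM in Ccr2-/- sdCAMs (-0.10, adjusted p = 0.863). With DESeq2, Runx1 (-1.47, adjusted p = 0.0135) and Cebpa (-1.78, adjusted p = 0.0441) were called in WT sdCAMs. With only the 6 libraries compared both were called there too (Runx1 -1.49, adjusted p = 0.0448, and Cebpa -1.82, adjusted p = 0.048).

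Of 6 neutrophil markers, S100a8 was the only one with counts high enough to test for LPS in these sdCAMs, and it rose in Ccr2-/- sdCAMs (5.58 ± 0.59, adjusted p = 1.73e-05) and was not called in WT sdCAMs (6.18 ± 1.94, adjusted p = 0.0797). The 6 neutrophil markers summed to between 1.312 and 94.59 CPM in untreated WT sdCAMs and between 360.1 and 3259 CPM after LPS, and to between 1.396 and 3.034 CPM and between 60.88 and 93.99 CPM in Ccr2-/- sdCAMs. Between 3 and 5 of the 6 markers were at 0 in each of these WT LPS libraries, and Ly6g, the surface marker of neutrophils, was at 0 in all of these groups. The 6 monocyte markers summed to between 2.443 and 5.205 CPM in untreated and between 104.2 and 194 CPM in LPS-treated Ccr2-/- sdCAMs, and to between 28.86 and 52.16 CPM and between 24.54 and 101 CPM in WT sdCAMs. Their part in the Cebpb, Spi1 and Mef2c levels was not tested.

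**Figure D4:**
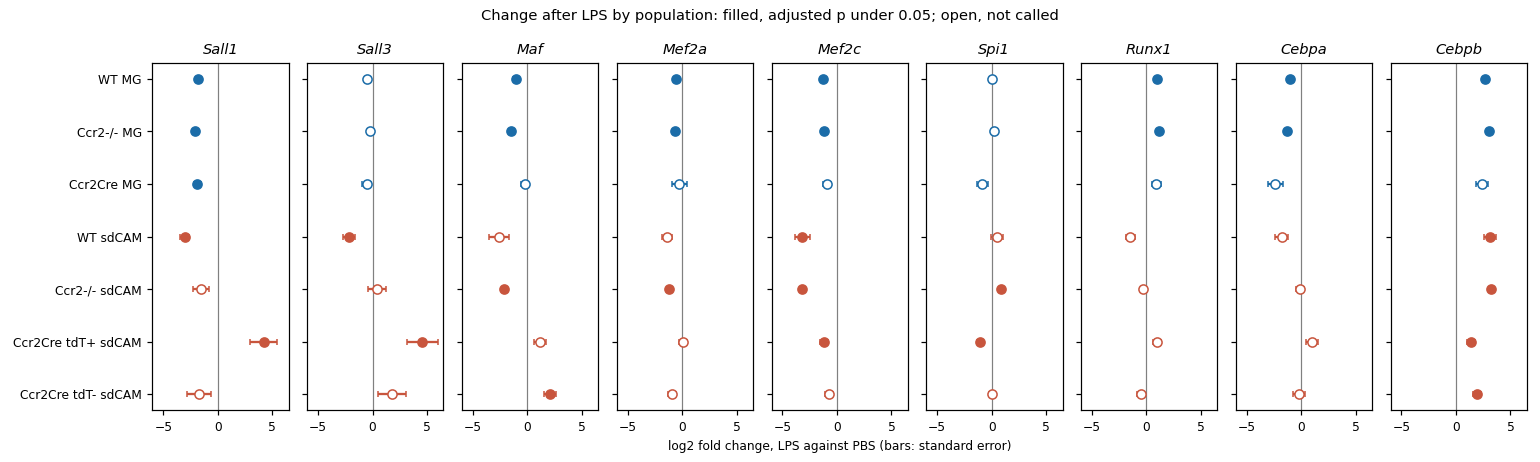
Log2 fold change after LPS, against untreated or PBS-injected mice, of each factor in 7 populations, with bars for the standard error. Filled points have an adjusted p below 0.05. Cebpb lies to the right in all 7 populations, with values from 1.41 to 3.21, and Mef2c to the left.

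The response to LPS differed between cell types for Runx1 in both genotypes. The interaction, the response of sdCAMs minus that of MG, was -2.57 ± 0.444 for Runx1 in WT mice (adjusted p = 0.00686) and -1.47 ± 0.243 in Ccr2-/- mice (adjusted p = 0.000572). Runx1 rose in MG, and its mean was lower after LPS in WT and Ccr2-/- sdCAMs, where the fit as reported called no change. The WT interaction was not called without LPS mouse 6 (-2.61, adjusted p = 0.0647), untreated mouse 9 (-2.52, adjusted p = 0.0556) or untreated mouse 15 (-2.40, adjusted p = 0.0625). In WT mice it was the only member called, where 1.32% of 13136 genes were called. In Ccr2-/- mice, where 8.14% of 12890 genes were called, Mef2c (-1.93 ± 0.239, adjusted p = 2.96e-05) and Spi1 (0.72 ± 0.177, adjusted p = 0.0139) were called as well. Mef2c thus fell further in sdCAMs than in MG, and Spi1 rose in sdCAMs relative to MG. The Spi1 interaction was lost without untreated mouse 1m (0.66, adjusted p = 0.0906) or 5f (0.70, adjusted p = 0.0853) and without LPS mouse V1m (0.73, adjusted p = 0.0714) or V2m (0.56, adjusted p = 0.153). The interaction of Mef2c in WT mice was -2.01 ± 0.578 and was not called (adjusted p = 0.0905). It was called with DESeq2 (-1.87, adjusted p = 0.02) and with the mark as a covariate (-2.25, adjusted p = 0.00444). Maf was called with the mark as well (-1.86, adjusted p = 0.043). The median of all genes in the WT interaction was -0.226 on the log2 scale.

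The response of the 9 genes to LPS was not called different between genotypes. The interaction of genotype and LPS called 0 of 12423 genes (0%) in MG and 0 of 13258 genes (0%) in sdCAMs with edgeR, against 503 and 1792 genes at an unadjusted p below 0.05, and DESeq2 called 1 and 242 genes. None of the members in MG and 3 members in sdCAMs, namely Sall3, Runx1 and Cebpa, had an unadjusted p below 0.05. For Sall3 the Ccr2-/- minus WT difference of the sdCAM responses was 2.82 (adjusted p = 0.221), for Runx1 1.35 (adjusted p = 0.221) and for Cebpa 1.91 (adjusted p = 0.253).

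Earlier BLZ945 treatment left no called difference in any member after LPS. With edgeR, 9 of 11789 genes were called between BLZ945 and CTL mice in WT MG (0.0763%), 0 in WT sdCAMs (0%), 2 in Ccr2-/- MG (0.0173%) and 0 in Ccr2-/- sdCAMs (0%). At an unadjusted p below 0.05 the counts were 776, 758, 769 and 998 genes, and DESeq2 called 73, 11, 38 and 88. Among the members only Sall1 and Runx1 in WT sdCAMs had an unadjusted p below 0.05. Sall1 held 24.54, 16.32 and 29.48 CPM in CTL LPS sdCAMs and 80.78, 97.82 and 79.15 CPM in BLZ945 LPS sdCAMs, with every BLZ945 library higher (1.77 ± 0.415, adjusted p = 0.689), and the difference of Sall1 was called without BLZ945 mouse 12 (1.80, adjusted p = 0.0309), which leaves only libraries with the IEG_correction label on the CTL side and only libraries without it on the BLZ945 side, so that the label and BLZ945 cannot be told apart there. With the mark as a covariate the Sall1 difference was 1.52 (adjusted p = 0.991). Runx1 held 42.66, 75.75 and 61.73 CPM against 201.3, 145.1 and 116.2 CPM, also without overlap (1.29 ± 0.424, adjusted p = 0.689). In these libraries the median microglial marker stood at 23.7% to 27.3% of MG in BLZ945 sdCAMs against 17.5% to 26.4% in CTL sdCAMs, and Sall1 at 32.2% to 41.1% against 7.29% to 17.7%. Saa3 took 2.39% and 1.79% of counts in BLZ945 mice 8 and 11 and 21.0% in mouse 12, against 23.0% to 35.8% in CTL mice. In Ccr2-/- sdCAMs, Sall1 held 9.2 ± 6.93 CPM in CTL and 14.17 ± 12.4 CPM in BLZ945 mice, Mef2c 83.18 ± 11.7 and 64.14 ± 15.1 CPM and Cebpb 649.1 ± 51.4 and 752.3 ± 197 CPM. In MG, Sall1 held 207.8 ± 62.8 CPM in CTL and 242.3 ± 3.83 CPM in BLZ945 WT mice, and 135.8 ± 22.5 and 141.8 ± 55.6 CPM in Ccr2-/- mice.

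Without LPS, no member was called between tdT+ and tdT- sdCAMs of the Ccr2Cre mice, where 3 genes in all were called (0.0236% of 12708, with 566 at an unadjusted p below 0.05 and 83 by DESeq2). Only Sall1 had an unadjusted p below 0.05. It was lower in every tdT+ library, at 0.564 to 5.825 CPM against 13.65 to 28.73 CPM (-3.05 ± 1.15, adjusted p = 0.924). The libraries of both populations overlapped for Maf, Mef2a, Mef2c and Spi1. Mef2c held 522.4 ± 38.8 CPM in tdT+ and 528 ± 36.3 CPM in tdT- cells, and Spi1 460.1 ± 38.2 and 444 ± 47 CPM.

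After LPS, Cebpb rose in both Ccr2Cre sdCAM populations. It held 196.4, 113.9 and 185.9 CPM in tdT+ cells after PBS and 343.4, 616.6 and 351.4 CPM after LPS (1.41 ± 0.371, adjusted p = 0.0204), and 207.9, 103.1 and 166 CPM and 598.1, 809 and 451.2 CPM in tdT- cells (1.96 ± 0.377, adjusted p = 0.00122). Every LPS library of Cebpb stood above every PBS library of the same population. The tdT+ call of Cebpb was lost without LPS mouse 5 (1.06, adjusted p = 0.0657) or PBS mouse 175 (1.19, adjusted p = 0.0966) or 177 (1.49, adjusted p = 0.0523). Maf rose in tdT- cells from 484.5, 628.4 and 564.1 CPM to 3372, 801.7 and 2983 CPM (2.09 ± 0.541, adjusted p = 0.00955), whereas it fell in Ccr2-/- sdCAMs, a difference that was not tested. In tdT+ cells Maf held 521.2, 609.8 and 475 CPM and then 1907, 384.9 and 1353 CPM, which overlapped and was not called (1.18 ± 0.527, adjusted p = 0.154). The overlapping value, 384.9 CPM, came from LPS mouse 5. Without that library the rise of Maf in tdT+ cells was called (1.59, adjusted p = 0.0288). With both doubtful libraries exchanged, Maf in tdT- cells was no longer called (1.61, adjusted p = 0.121), and 1.73 (adjusted p = 0.0533) was found with both left out. Over all genes, 13.6% of 12708 were called in tdT+ and 27.1% in tdT- sdCAMs, with 5 and 2 members among them.

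Spi1 and Mef2c fell in tdT+ cells, and Mef2c was lower after LPS in tdT- cells too. Spi1 held 503.3, 446.5 and 430.6 CPM after PBS and 234.2, 199.5 and 217 CPM after LPS (-1.08 ± 0.265, adjusted p = 0.0135), and Mef2c 490.8, 565.7 and 510.6 CPM and then 264.7, 317 and 114 CPM (-1.17 ± 0.369, adjusted p = 0.0475). Both sets of libraries were separate. In tdT- cells Mef2c held 500.6 to 569.1 CPM after PBS and 201 to 422.9 CPM after LPS. This was also without overlap but was not called (-0.76, adjusted p = 0.135). With both doubtful libraries left out, Mef2c was called in tdT- cells (-1.07, adjusted p = 0.0274) and not in tdT+ cells (-0.85, adjusted p = 0.111). Runx1 held 131.6, 55.61 and 72.97 CPM in tdT+ cells after PBS and 168.6, 185 and 154.7 CPM after LPS, all higher (0.97 ± 0.337), which edgeR did not call (adjusted p = 0.0698). The Runx1 change was called with DESeq2 (1.0, adjusted p = 0.0328) and without PBS mouse 174 (1.39, adjusted p = 0.0261), and in tdT- cells it was -0.53 (adjusted p = 0.26). The Spi1 call was lost without LPS mouse 7 (-1.10, adjusted p = 0.0505), without PBS mouse 174 (-1.03, adjusted p = 0.0587) and after the exchange (-0.73, adjusted p = 0.3), and the Mef2c call was kept in 4 of 13 alternatives, with -0.64 after the exchange (adjusted p = 0.353), -0.85 without LPS mouse 7 (adjusted p = 0.175), and an adjusted p of 0.089 without LPS mouse 1 and of 0.0915, 0.118 and 0.101 without PBS mice 174, 175 and 177. After LPS, Spi1 was the only member called between tdT+ and tdT- cells, at 216.9 ± 17.4 against 463.8 ± 71.9 CPM (-1.10 ± 0.265, adjusted p = 0.0144), where 10.8% of 12708 genes were called. In plain CPM this Spi1 ratio was -0.06, and after the exchange it was -0.55 (adjusted p = 0.9), with 0 genes called by edgeR and 816 at an unadjusted p below 0.05. It was not called without mouse 7 (-1.11, adjusted p = 0.0694), and the call was kept with the mouse as a block (-1.09, adjusted p = 0.0199). With that block Maf (-1.01, adjusted p = 0.0254), Mef2a (0.96, adjusted p = 0.0329) and Runx1 (1.05, adjusted p = 0.046) were called too. Without mouse 5, Maf (-0.95, adjusted p = 0.0192) and Mef2a (1.07, adjusted p = 0.0299) were also called between tdT+ and tdT- cells.

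The rise of Sall1 and Sall3 in tdT+ cells rested on the library of mouse 5. Sall1 held 3.258, 116.2 and 12.64 CPM in LPS mice 1, 5 and 7 against 0.8641, 0.564 and 5.825 CPM after PBS (4.19 ± 1.2, adjusted p = 0.0312), with overlap between the groups. Sall3 held 3.666, 62.27 and 12.02 CPM against 0.54, 0 and 2.754 CPM (4.55 ± 1.43, adjusted p = 0.0463). In mouse 5 the median microglial marker stood at 80% of the MG library of that mouse, Sall1 at 103% and Sall3 at 88.4%, whereas in mice 1 and 7 the markers stood at 3.94% and 9.71%, Sall1 at 2.76% and 11.2% and Sall3 at 3.32% and 13.5%. After the exchange neither was called, at 4.08 for Sall1 (adjusted p = 0.0711) and 4.68 for Sall3 (adjusted p = 0.0585). Without mouse 5 the change of Sall1 was 1.7 (adjusted p = 0.348) and that of Sall3 2.81 (adjusted p = 0.257). Sall1 was also not called without PBS mouse 174 (3.78, adjusted p = 0.106) or 175 (3.72, adjusted p = 0.0953), and Sall3 not without LPS mouse 7 (4.89, adjusted p = 0.0701) or PBS mouse 174 (4.22, adjusted p = 0.141) or 175 (3.97, adjusted p = 0.0975). In tdT- cells Sall1 held 13.65, 17.64 and 28.73 CPM after PBS and 3.214, 11.18 and 4.001 CPM after LPS, all lower but not called (-1.69 ± 1.1, adjusted p = 0.271).

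With tdT+ and tdT- counts summed per mouse, 27% of 12548 genes and 4 members were called after LPS. Cebpb rose (1.62 ± 0.332, adjusted p = 0.0072) and Mef2c fell (-1.0 ± 0.29, adjusted p = 0.03). Sall3 was higher (3.25 ± 0.87, adjusted p = 0.0223), and 2.31 (adjusted p = 0.0824) with the tdT+ LPS library of mouse 5 left out of the sums. Maf was higher as well (1.62 ± 0.514, adjusted p = 0.0431) although its groups overlapped, and its call was kept in 7 of 14 alternatives. After the exchange, Maf (1.67, adjusted p = 0.0904) and Mef2c (-0.98, adjusted p = 0.103) were not called, and with both libraries left out Sall3 was not called either (2.85, adjusted p = 0.12). On leaving out a mouse, Maf was not called without LPS mouse 1 (1.10, adjusted p = 0.153), LPS mouse 7 (1.47, adjusted p = 0.127) or any PBS mouse (adjusted p between 0.105 and 0.136), Mef2c not without LPS mouse 7 (-0.87, adjusted p = 0.0798) or any PBS mouse (adjusted p between 0.0744 and 0.0975), and Sall3 not without LPS mouse 5 (2.20, adjusted p = 0.107) or PBS mouse 174 (2.90, adjusted p = 0.0753) or 175 (2.91, adjusted p = 0.0817). Calls were gained without LPS mouse 5 for Mef2a (-0.81, adjusted p = 0.0365), Spi1 (-0.59, adjusted p = 0.0369) and Cebpa (0.82, adjusted p = 0.0377). Spi1 was also called with the mean of the tdT+ and tdT- responses (-0.51, adjusted p = 0.0446). Neutrophil markers summed to 0 in tdT- cells after PBS and to between 570.9 and 2234 CPM after LPS, and to between 0 and 1.377 CPM and between 8.452 and 47.65 CPM in tdT+ cells, with Ly6g at 0 in both LPS groups. In tdT+ cells the monocyte markers summed to between 230.1 and 285.7 CPM after PBS and between 27.33 and 141.3 CPM after LPS, with 2 of 5 tested higher and 1 lower. The lymphocyte markers there summed to between 20.42 and 116.4 CPM and between 0.3082 and 6.058 CPM, with 1 of 3 tested lower, and the sdCAM markers to between 10780 and 11980 CPM and between 1361 and 7816 CPM, with 3 of 8 lower. The part of these transcripts in the members' levels was not tested.

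In Ccr2Cre MG, Sall1 was the only member called after LPS, where 1.08% of 10882 genes were called. It held 419.2, 361.4 and 458 CPM after PBS and 118.2, 113.3 and 113.1 CPM after LPS, without overlap (-1.88 ± 0.294, adjusted p = 0.0385). Cebpb held 94.95, 230.2 and 101 CPM and then 1212, 593.2 and 523.4 CPM (2.39 ± 0.551, adjusted p = 0.0906), and Cebpa 144.3, 248.6 and 138.2 CPM and then 74.13, 16.24 and 15.95 CPM (-2.36, adjusted p = 0.169). The library of PBS mouse 175 and that of LPS mouse 1 stood apart, as Mef2a shows with 122.3 CPM beside 616.6 and 776.9 CPM after PBS and 191 CPM beside 460.4 and 634 CPM after LPS. Without both, Sall1 (-1.93, adjusted p = 0.00435), Cebpb (2.53, adjusted p = 0.00252), Cebpa (-3.11, adjusted p = 0.00362) and Spi1 (-1.18, adjusted p = 0.0192) were called, among 1342 genes. On leaving out one library at a time, the Sall1 call was lost without LPS mouse 1 (adjusted p = 0.0963), 5 (adjusted p = 0.297) or 7 (adjusted p = 0.246) or PBS mouse 174 (adjusted p = 0.143) or 177 (adjusted p = 0.133), with values between -1.88 and -1.82.

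Other genes that work with these factors were read from 4 lists. The lists were chosen with earlier results of these data known, so their counts are a description and not a test. Of 16 targets of C/EBP beta, the factor made from Cebpb, which binds promoters of cytokine and acute-phase genes, 8 rose and 1 fell of 12 tested in WT MG after LPS, 11 rose and 1 fell of 13 in Ccr2-/- MG, 7 rose and 0 fell of 11 in WT sdCAMs, and 13 rose and 1 fell of 16 in Ccr2-/- sdCAMs. The median log2 fold changes were 3.9, 4.28, 6.23 and 4.6, beside medians over all genes tested of 0.023, 0.003, -0.075 and -0.045. Of all genes tested, 30.9%, 34.9%, 6.32% and 28.8% were called in these comparisons. Il1rn, which encodes the antagonist of the interleukin-1 receptor, rose from 0.2479 ± 0.429 to 223.9 ± 276 CPM in WT MG (adjusted p = 0.000383) and from 5.489 ± 1.56 to 2891 ± 39.5 CPM in Ccr2-/- sdCAMs (adjusted p = 3.89e-10). Saa3 rose from 5.206 ± 2.13 to 989.1 ± 401 CPM in Ccr2-/- MG (7.57 ± 0.672, adjusted p = 1.82e-06). The complement gene C3 rose by a log2 fold change of 4.17 ± 0.557 in WT sdCAMs (adjusted p = 0.00362) and 4.18 ± 0.303 in Ccr2-/- sdCAMs (adjusted p = 7.39e-07). The gene that fell was Mrc1, at -1.06 ± 0.365 in WT MG (adjusted p = 0.0438), -1.26 ± 0.443 in Ccr2-/- MG (adjusted p = 0.0395) and -2.37 ± 0.172 in Ccr2-/- sdCAMs (adjusted p = 7.39e-07). Mrc1 encodes CD206, on which the cells were sorted, and is also in the sdCAM list.

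Among 16 targets of PU.1 and Runx1, all tested, 6 rose and 4 fell in WT MG, 7 and 4 in Ccr2-/- MG, 1 and 0 in WT sdCAMs, and 9 and 5 in Ccr2-/- sdCAMs, with medians of 0.33, 0.32, 0.49 and 0.81. Of all genes tested, 30.9%, 34.9%, 6.32% and 28.8% were called in these comparisons, and the 1 of 16 in WT sdCAMs is near that share. Cybb, a subunit of the phagocyte oxidase, rose in WT MG (4.19 ± 0.573, adjusted p = 0.000282) and Ccr2-/- MG (5.79 ± 0.308, adjusted p = 2.01e-08). Itgam, the integrin chain CD11b, rose in WT sdCAMs (2.08 ± 0.524, adjusted p = 0.0406) and Ccr2-/- sdCAMs (2.53 ± 0.156, adjusted p = 1.99e-07). Csf1r, the receptor that BLZ945 inhibits, fell in Ccr2-/- sdCAMs (-1.65 ± 0.133, adjusted p = 1.67e-06).

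Of 24 other regulators of macrophages, 7 rose and 6 fell of 21 tested in WT MG, 8 and 7 of 21 in Ccr2-/- MG, 4 and 3 of 21 in WT sdCAMs, and 6 and 6 of 23 in Ccr2-/- sdCAMs, with medians of -0.26, -0.17, -0.43 and -0.38, beside 30.9%, 34.9%, 6.32% and 28.8% of all genes called in either direction. The leucine zipper gene Nfil3 rose in all of these populations, with log2 fold changes of 3.36 ± 0.276 in WT MG (adjusted p = 6.72e-06), 3.96 ± 0.298 in Ccr2-/- MG (adjusted p = 4.19e-07), 3.97 ± 0.607 in WT sdCAMs (adjusted p = 0.00644) and 4.04 ± 0.321 in Ccr2-/- sdCAMs (adjusted p = 1.5e-06). Id2, an inhibitor of helix-loop-helix factors, rose as well, by 3.4 ± 0.196 in WT MG (adjusted p = 4.86e-07) and 5.79 ± 0.903 in WT sdCAMs (adjusted p = 0.0068). The ETS gene Fli1 fell in WT sdCAMs (-2.36 ± 0.462, adjusted p = 0.017) and Ccr2-/- sdCAMs (-2.07 ± 0.252, adjusted p = 5.71e-05). Of 19 members of the same gene families, 3 rose and 1 fell of 10 tested in WT MG, 3 and 2 of 10 in Ccr2-/- MG, 0 and 0 of 11 in WT sdCAMs, and 5 and 1 of 12 in Ccr2-/- sdCAMs, with medians of 0.13, 0.06, -0.3 and 0.64, beside the same shares of all genes. Cebpd, another inflammatory C/EBP gene, rose in WT MG (1.49 ± 0.201, adjusted p = 0.000268) and Ccr2-/- MG (1.68 ± 0.164, adjusted p = 4.31e-06). Sall2 fell in WT MG (-1.39 ± 0.333, adjusted p = 0.00823) and Ccr2-/- MG (-1.52 ± 0.38, adjusted p = 0.00687).

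Over all 18 groups, the span from the highest to the lowest group mean was widest for Sall1 at 306 times, followed by Sall3 at 160 and Maf at 74, and narrowest for Spi1 at 3.47. It was 27.8 for Mef2c, 12 for Cebpb, 6.51 for Mef2a, 6 for Runx1 and 5 for Cebpa. In plain CPM the spans of Mef2a, Runx1 and Cebpa were 17.3, 20 and 13.2, above that of Cebpb at 12.7. The lowest means of Sall1 and Sall3 come from tdT+ cells after PBS, with 5 to 55 and 0 to 26 counts per library, and without the library of mouse 177 their spans were 1040 and 651. Most neighbours in the order of groups overlapped. The spans and the order take in groups of both batches. Of 17 neighbouring pairs of groups, the libraries were separate in 5 for Sall1, 3 each for Maf and Mef2a, 2 each for Mef2c, Runx1 and Cebpb, 1 each for Sall3 and Spi1, and 0 for Cebpa. For Cebpb one of the breaks lay between the 11 LPS groups and the 7 PBS groups, and for Mef2c all 7 PBS groups (lowest mean 522.4 CPM) stood above all 11 LPS groups (highest mean 347.1 CPM). For Sall3 the break lay between the lowest MG group, BLZ945 LPS in Ccr2-/- mice at 75.5 ± 8.25 CPM, and WT sdCAMs with BLZ945 and LPS at 49.75 ± 4.67 CPM, with the untreated WT sdCAMs at 150.8 ± 71.6 CPM the sdCAM group above it.

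Genes with the most similar pattern were found by Pearson correlation of the 18 group means on the log2(CPM + 1) scale among 10525 genes, as a description over groups that share libraries, depth and cell types. These groups come from both batches. Sall1 and Sall3 shared their closest gene, Nav3, at r = 0.971 and 0.962, followed by Lrrc3 (0.963) for Sall1 and Ildr2 (0.954) for Sall3. Cebpb was closest to Nfkbia (0.977), Srgn (0.975) and Fcgr4 (0.97). Maf was closest to Lyl1 (0.94), Mef2a to Slc4a7 (0.965), Mef2c to Kctd12 (0.924), Runx1 to Peli2 and Nup153 (0.895), Spi1 to Manbal (0.868) and Cebpa to Hnrnpul1 (0.833).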

How the data were processed

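Counts per gene symbol of 54 libraries were deposited in 3 tables of 18 columns, as raw counts without normalization. According to the methods, the authors made cDNA with the SMARTer Ultra Low Input kit from sorted cells, prepared Nextera XT libraries, sequenced 50-base single reads, aligned them with STAR 2.7.11a and counted them with featureCounts 2.0.8. The build is given as mm10 or GRCm39, so no coordinate was read with the counts, and neither strand nor molecular identifiers were stated. The study's own ComBat-seq step is not in the deposited counts. For Ccr2-/- LPS libraries the title and the cell type label disagree, and the cell type label and library name were used.

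Levels are CPM with edgeR 4.0.16 TMM factors over the 15101 genes that passed filterByExpr. Tests used edgeR's two-sided quasi-likelihood F test in R 4.3.3 (filterByExpr, TMM, one term per group), with WT MG, WT sdCAMs, Ccr2-/- MG, Ccr2-/- sdCAMs, Ccr2Cre MG and Ccr2Cre sdCAMs fitted apart, all libraries of a genotype together for contrasts between cell types, and WT with Ccr2-/- libraries of a cell type together for contrasts between genotypes. P-values were adjusted by Benjamini-Hochberg over all genes tested, and the SE is the log2 fold change divided by the root of F. The 3 libraries of a group came from separate mice. The edgeR fit was tried on simulated counts for LPS in WT MG, WT sdCAMs, Ccr2-/- sdCAMs and Ccr2Cre MG only. Alternatives were DESeq2 1.42.0, its size factors, other filters, each library left out, the mouse as a block and others given in the closing section. MG and sdCAMs of a mouse are paired by design, and their deviations from the group means correlated at -0.127 to 0.319 over 30 pairs (median 0.068), while tdT+ and tdT- sdCAMs correlated at 0.074 to 0.216 over 6 pairs. Lengths per kb are the union of GENCODE vM21 exons. The members and gene lists were chosen with earlier results of these data known. All members were named, with the 3 genes of most similar pattern and, from each list, examples with the smallest p. The promoters of Sall1, Sall3, Maf, Spi1 and Runx1 are not printed.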

Additional observations from a re-analysis of the deposited data

Results flagged for a closer look

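Of the 9 factors, 3 showed a called difference between the LPS response of sdCAMs and that of MG in Ccr2-/- mice, and only Runx1 did in WT mice. Over all genes, 8.14% of 12890 were called in Ccr2-/- and 1.32% of 13136 in WT mice. For Runx1 the response of sdCAMs minus that of MG was -2.57 in WT mice and -1.47 in Ccr2-/- mice on the log2 scale. For Mef2c it was -1.93 and for Spi1 0.72, both in Ccr2-/- mice. The WT call of Runx1 was lost without LPS mouse 6 or untreated mouse 9 or 15. The Spi1 call was lost without untreated mouse 1m or 5f or LPS mouse V1m or V2m. Saa3 took 23.0% to 35.8% of the counts in WT sdCAMs after CTL and LPS and 5.88% to 6.71% in the same group of Ccr2-/- sdCAMs, and its part in these differences was not tested.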

How the results depend on the processing

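Of 2250 log2 fold changes of the members recomputed under an alternative, 2038 kept their direction and side of the threshold, 92 lost a call, 39 gained one, and 81 that were called in neither fit changed sign. No called change reversed. The number of members called after LPS in WT sdCAMs was 4, and 8 with DESeq2. In Ccr2Cre MG it was 1, and 3 with DESeq2, 0 with the study's low-count rule and 4 without the LPS library of mouse 1 and the PBS library of mouse 175. In summed Ccr2Cre sdCAMs it was 4, and 2 with both doubtful libraries exchanged or 1 with them left out. In tdT+ sdCAMs it was 5, and 2 with only the 6 libraries compared, 1 after the exchange and 3 with both left out. In tdT- sdCAMs it was 2, and 1 after the exchange. Between tdT+ and tdT- cells after LPS it was 1, and 4 with the mouse as a replicate block or 0 after the exchange. For cell type by LPS in WT mice it was 1, and 2 with DESeq2 or 3 with the IEG mark as a covariate. The block changed no other member call than those given in the report. The alternatives with the tdT+ LPS library of mouse 5 left out of the sums or with both Ccr2Cre MG libraries left out were chosen after seeing the data.

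Leaving out one library or mouse, the members called after LPS ranged from 6 to 8 in WT MG (7 with all), 7 to 7 in Ccr2-/- MG, 1 to 3 in WT sdCAMs (1 without untreated mouse 9 or 14), 5 to 5 in Ccr2-/- sdCAMs, 0 to 2 in Ccr2Cre MG (2 without PBS mouse 175 and 0 without any other), 1 to 6 in summed Ccr2Cre sdCAMs (1 without PBS mouse 174 or 175), 1 to 4 in tdT+ (1 without PBS mouse 175) and 2 to 3 in tdT- sdCAMs. They ranged from 0 to 1 for BLZ945 in WT sdCAMs (1 without BLZ945 mouse 12) and were 0 for BLZ945 in the other populations, for genotype by LPS and for tdT+ against tdT- after PBS. They ranged from 0 to 3 for tdT+ against tdT- after LPS (0 without mouse 7), 2 to 4 for sdCAMs against MG in WT, 4 to 5 in Ccr2-/- mice, 2 to 2 for tdT+ and 0 to 2 for tdT- cells against MG (0 without mouse 174), 0 to 1 for cell type by LPS in WT mice (0 without mouse 6, 9 or 15) and 2 to 3 in Ccr2-/- mice.

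Under the other alternatives, genes called over the whole table moved by more than 1.5 times for LPS in WT sdCAMs (664, and 1655 with DESeq2, 1142 with the mark as a covariate and 1359 with only the 6 libraries compared), Ccr2Cre MG (118, 855 with DESeq2 and 1342 without the 2 libraries), cell type by LPS in WT mice (174, 856 with DESeq2, 433 with the mark and 91 with the block), sdCAMs against MG in WT mice (2291, 1161 with the mark and 1380 with the block), tdT+ sdCAMs (1731, 2611 with DESeq2, 1097 after the exchange and 1141 with both libraries left out), tdT- sdCAMs (3448, 1513 after the exchange), summed sdCAMs (3386, 2202 after the exchange and 2150 with both left out), tdT+ against tdT- cells after LPS (1368, 855 with both left out) and after PBS (3, 83 with DESeq2, 16 with the study's low-count rule and 10 with the block), and tdT+ (1135) and tdT- (849) sdCAMs against MG (1951 and 1589 with DESeq2). For tdT+ against tdT- cells, 0 genes were called after LPS with the 2 libraries exchanged, and 5 after PBS with both left out. The cause of these moves was not tested. DESeq2's size factors moved the median of all genes from -0.226 to -0.069 and the split of higher and lower calls from 57 and 117 to 70 and 87 for cell type by LPS in WT mice, from 0.113 to -0.015 and from 489 and 879 to 327 and 973 for tdT+ against tdT- after LPS, from 0.04 to 0.234 for LPS in tdT- sdCAMs, from 0.167 to -0.009 for genotype by LPS in sdCAMs and from 0.029 to 0.129 for sdCAMs against MG in WT mice. Using only the 6 libraries compared is the fit as reported for Ccr2Cre MG and summed sdCAMs. BLZ945 gave 9, 0, 2 and 0 genes in WT MG, WT sdCAMs, Ccr2-/- MG and Ccr2-/- sdCAMs with edgeR, 73, 11, 38 and 88 with DESeq2. Genotype by LPS in sdCAMs gave 0 with edgeR (1792 at an unadjusted p below 0.05), 242 with DESeq2 and 33 with the mark. WT sdCAM totals reached down to 1705930 counts, and whether depth sets their spread was not tested. Leaving out one library or mouse, genes called ranged from 137 to 293 for LPS in WT sdCAMs (lowest without LPS mouse 6), 0 to 403 in Ccr2Cre MG (0 without LPS mouse 1, 403 without PBS mouse 175), 1968 to 4369 in summed sdCAMs and 966 to 1751 in tdT+ sdCAMs, 617 to 1708 for sdCAMs against MG in WT (lowest without mouse 14) and 1900 to 1959 in Ccr2-/- mice (2889 with all), 24 to 102 for cell type by LPS in WT (lowest without mouse 6) and 640 to 684 in Ccr2-/- mice (1049 with all), 585 to 703 for tdT+ and 463 to 511 for tdT- sdCAMs against MG, and 0 to 8 for tdT+ against tdT- after PBS. For BLZ945 they ranged from 0 to 14 in WT MG, 0 to 788 in WT sdCAMs (788 without BLZ945 mouse 12), 0 to 23 in Ccr2-/- MG and 0 to 7 in Ccr2-/- sdCAMs.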
